A study of Mus musculus with 4 samples.

Results

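The genes described here are 9 genes of programmed cell death, the Bcl2 family and caspase genes *Bcl2*, *Bcl2l1*, *Mcl1*, *Bak1*, *Bid*, *Bad*, *Bcl2l11*, *Apaf1* and *Casp8*. They were chosen by symbol, with no use of their measured values, and all 9 were found among the 22718 genes of the RNA-seq files. Prep1, encoded by *Pknox1*, is a homeodomain transcription factor of the TALE class. RNA-seq compared wild type mouse embryonic stem (ES) cells with Prep1-/- ES cells, both of C57BL/6 strain, derived in the laboratory of the study and grown without treatment on gelatin with leukemia inhibitory factor. Each genotype was 1 cell line and 1 library, the knockout being the line called KO2. ChIP-seq measured Prep1 binding in wild type ES cells, with 1 library and its input, using an antibody that also recognises the related protein Prep2 weakly. The ChIP cells carry the strain label C57BL/6, but the protocol names the R1 ES cell line, and this difference was not resolved.

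In the mitochondrial pathway of apoptosis, the pore-forming proteins Bak and Bax open the outer membrane of mitochondria and are held in check by Bcl2, Bcl-xL and Mcl1. BH3-only proteins such as Bad, Bid and Bim bind these inhibitors or activate the pore formers. Cytochrome c released through the pores joins Apaf1 in the apoptosome, which activates caspase-9, whereas caspase-8 is activated at death receptors and cleaves Bid to connect both routes.

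The wild type library held 29596294 reads assigned to genes and the Prep1-/- library 25717811. The methods of the study give a much smaller number of mapped reads per sample, and this difference was not resolved. *Pknox1* itself had 505 reads in wild type and 332 in the other library, or RPKM (read number scaled to gene length and library size) of 7.85 and 5.78. Its KO/WT ratio, the RPKM of the knockout library over that of wild type, was 0.736 (95% interval 0.638 to 0.846), so its reads were still present and the second library is called the library labelled Prep1-/-. By immunoblot, the study found Prep1 protein lost in the KO2 line, and the reads here measure RNA only. All 8 ES cell markers were present in both libraries, with summed RPKM of 1833 and 2089 and KO/WT ratios between 0.801 and 1.58. The fibroblast feeder list of 7 genes summed to RPKM of 24.9 and 30.4, with *Lum* at 0 reads in wild type. *Col1a1* had the most reads of that list, 976 and 1186 (ratio 1.36, 1.25 to 1.48). *Pdgfrb* had its lowest ratio, 0.813 (0.633 to 1.04). The 3 chromosome Y genes found had 0 reads in wild type and between 285 and 310 reads in the library labelled Prep1-/-, so the lines differed in more than *Pknox1*, and these differences cannot be told apart from that of the genotype. With 1 library for each genotype, no difference below has a replicate check, and the intervals cover counting error between these libraries, not variation between cultures or lines. These intervals also take each counted read as independent, and they would be too narrow if the deposited counts hold reads more than once.

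*Bad*, which encodes a BH3-only protein that neutralises Bcl2 and Bcl-xL, had the lowest ratio of the 9 genes. Wild type cells gave 690 reads for it, an RPKM of 19.1, against 263 reads and an RPKM of 8.16 in the library labelled Prep1-/-. This is a KO/WT ratio of 0.427 (0.368 to 0.492), or a level 2.34 times higher in wild type. *Bcl2l1*, which encodes the inhibitor Bcl-xL, had 14631 and 9054 reads (RPKM 94.4 and 65.3). Its ratio was 0.692 (0.674 to 0.710). *Apaf1*, the scaffold of the apoptosome, had 2293 and 1408 reads (RPKM 13.6 and 9.34) and a ratio of 0.687 (0.642 to 0.734). These 3 genes were lower in the library labelled Prep1-/- by the fold that the study set, which asks for RPKM above 1 in wild type cells and a ratio under 0.7. They belong to 3 different roles, a BH3-only protein, an inhibitor and the apoptosome.

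The fold was passed downward by 3 of the 8 genes with RPKM above 1 (*Bcl2* stayed below 1 in both libraries), beside 13.3% of the 14254 genes set against this fold (those with RPKM above 1 in either library, called tested here). Upward, 0 of the 8 had a ratio above 1.5, beside 6.91% of all genes tested. The intervals of *Bcl2l1* and *Apaf1* include 0.7. When reads were scaled by the summed reads of each library, their ratios became 0.712 and 0.707, and *Bad* alone of the 9 genes was still below 0.7, beside 11.8% of all genes tested at that scaling. The interval of the ratio lay wholly below 1 for 7 of the 8 genes, beside 36.3% of all genes tested, and wholly above 1 for 0 of the 8, beside 20.7%. With TMM scaling the first count was 6, *Mcl1* being lost, beside 28.2% of all genes tested, and the second 0, beside 27.7%. Intervals are narrower where reads are many, so a small difference can exclude 1 in a deeply read gene. The 8 genes (from 101 wild type reads for *Casp8* to 14911 for *Bak1*) were not matched in reads to all genes tested. The median ratio of the 9 genes was 0.865, beside 0.955 over the 13218 genes that exceeded RPKM 1 in each library.

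**Figure D1:**
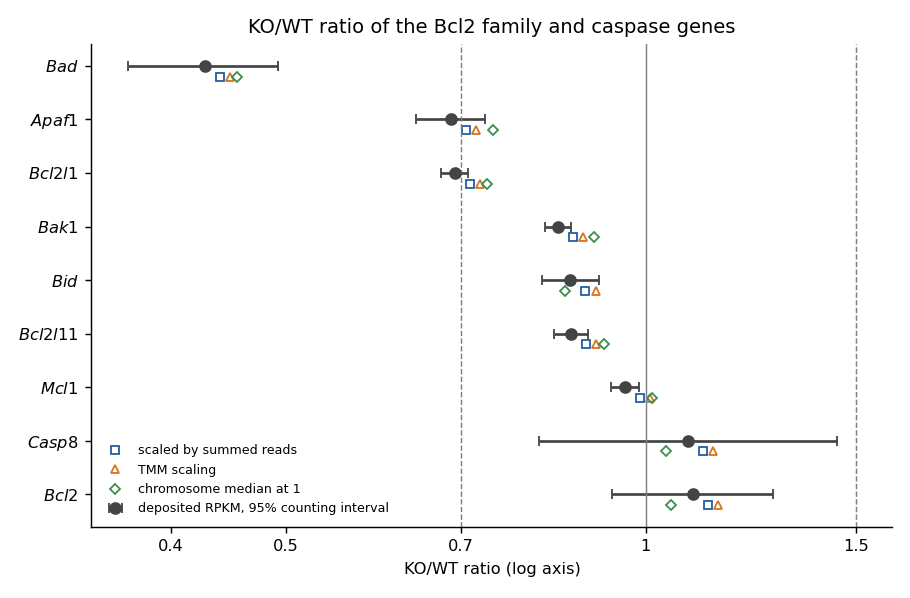
KO/WT ratio (horizontal log axis) of each of the 9 genes, with black points for the ratio of the deposited RPKM, bars for its 95% counting interval and open symbols for the other scalings. Dashed lines mark 0.7 and 1.5, and *Bad* at 0.427 lies below 0.7 under every scaling drawn, whereas *Apaf1* at 0.687 and *Bcl2l1* at 0.692 lie above it under the other scalings.

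Of the 5 primitive endoderm markers, 3 had lower values in the library labelled Prep1-/-, beside the lower levels of *Bad*, *Bcl2l1* and *Apaf1*. *Gata4*, a transcription factor of that lineage, had 1156 and 350 reads, and the summed RPKM of the list was 7.29 and 4.03, with *Afp* at 1 and 6 reads. *Sox7* of the same list went the other way, with 119 and 148 reads and a ratio of 1.39 (1.09 to 1.79). In bulk RNA, fewer cells of a type and less RNA per cell cannot be told apart, and the part of these cells in the lower ratios was not tested.

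**Figure D2:**
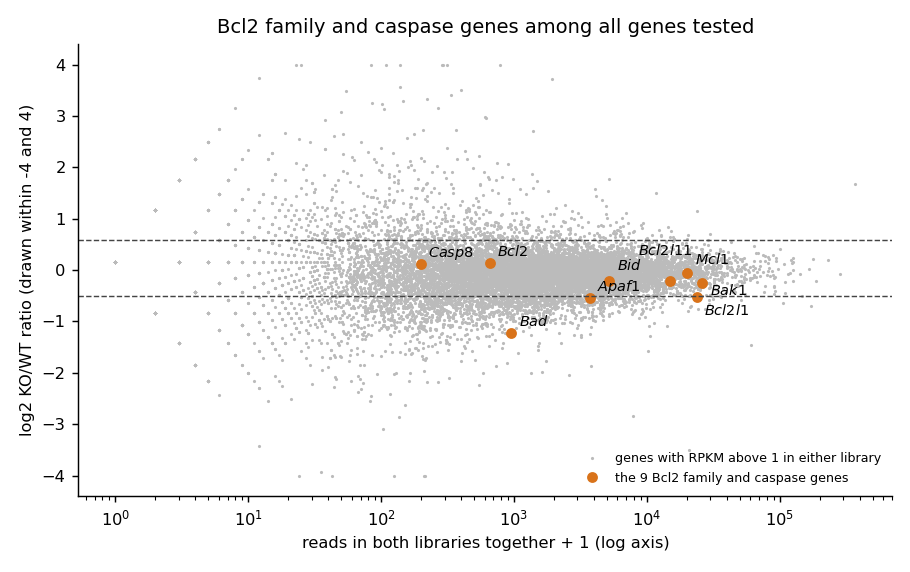
Log2 KO/WT ratio (vertical axis, drawn within −4 and 4) against the reads of both libraries together plus 1 (log axis) for the genes tested (grey) and the 9 Bcl2 family and caspase genes (orange). Dashed lines mark ratios of 0.7 and 1.5, and *Bad* lies apart from the other 8 genes at a log2 ratio of −1.23.

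Among all genes tested, 1.91% had a lower ratio than *Bad*. The same share was 12.3% for *Apaf1* and 12.7% for *Bcl2l1*, and 30.5% for *Bak1*, the next gene. *Bad* therefore stood near the low end of all genes, whereas *Apaf1* and *Bcl2l1* stood close to the edge of the lower 13.3%.

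The inhibitors did not move alike. *Mcl1*, which encodes a short-lived inhibitor, had 10862 reads in wild type (RPKM 107) against 9333 in the library labelled Prep1-/- (RPKM 103). Its ratio was 0.961 (0.934 to 0.988), but it passed above 1 (up to 1.01) in 3 of the 6 other scalings and pseudocounts, so no direction is given for it. *Bcl2*, the founding inhibitor of the family, was low in both libraries, with 332 and 325 reads (RPKM 0.741 and 0.812) and a ratio of 1.09 (0.936 to 1.28). The balance of 2 genes within a library does not depend on how the libraries are scaled. The RPKM of *Bcl2l1* over that of *Mcl1* was 0.885 in wild type and 0.637 in the library labelled Prep1-/-, a ratio of ratios of 0.720 (0.693 to 0.748). That interval lies below 1, so *Bcl2l1* was lower relative to *Mcl1* by more than counting error between these libraries.

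The pore formers differed less. *Bak1* had the highest RPKM of the 9 genes in both libraries, with 14911 reads in wild type (RPKM 147) against 11260 in the other (RPKM 124), and a ratio of 0.844 (0.824 to 0.865). *Bax*, the other main pore former and not one of the 9 genes, had 3449 and 2810 reads (RPKM 222 and 202) and a ratio of 0.911 (0.866 to 0.958). Neither passed the fold. *Bcl2l1* relative to *Bak1* was 0.641 in wild type and 0.525 in the library labelled Prep1-/- (ratio of ratios 0.819, 0.790 to 0.850), and relative to *Bax* it was 0.425 and 0.323 (0.760, 0.718 to 0.804). *Mcl1* relative to *Bak1* went the other way, from 0.724 to 0.824 (1.14, 1.10 to 1.18), and relative to *Bax* its ratio of ratios of 1.05 had an interval that includes 1 (0.996 to 1.12).

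Of the BH3-only genes, *Bid* and *Bcl2l11* had ratios near that of *Bak1*. *Bid*, whose product is the substrate of caspase-8, had 2945 and 2277 reads (RPKM 57.2 and 49.5) and a ratio of 0.865 (0.818 to 0.913). *Bcl2l11*, which encodes Bim, had 8469 and 6559 reads (RPKM 24.4 and 21.1) and a ratio of 0.866 (0.838 to 0.894). *Bid*, *Bcl2l11* and *Bak1* could not be separated from each other by counting, as the ratios of their ratios were 0.977 (0.919 to 1.04) for *Bak1* over *Bid*, 0.975 (0.936 to 1.02) for *Bak1* over *Bcl2l11* and 0.998 (0.936 to 1.06) for *Bid* over *Bcl2l11*. *Bad* over *Bcl2l11* was 0.783 in wild type and 0.386 in the library labelled Prep1-/- (ratio of ratios 0.492, 0.424 to 0.570). *Bbc3*, which encodes the BH3-only protein Puma and is not one of the 9 genes, had 1486 and 1003 reads (RPKM 29.1 and 22.0) and a ratio of 0.755 (0.696 to 0.818), lower than that of *Bak1* (ratio of ratios of *Bak1* over *Bbc3* 1.12, 1.03 to 1.22).

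*Casp8* was near the limit of what these depths can resolve. It had 101 reads in wild type (RPKM 2.13) against 98 in the library labelled Prep1-/- (RPKM 2.31), and its ratio of 1.09 had an interval from 0.813 to 1.45. At this depth, a difference of that size could not be detected.

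*Bad* was also separated by counting from *Apaf1*, the gene with the next lowest ratio, with a ratio of ratios of *Bad* over *Apaf1* of 0.621 (0.529 to 0.728). *Bcl2l1* over *Apaf1* had a ratio of ratios of 1.01 (0.938 to 1.08), so these genes, of unlike roles, could not be separated by counting. The RPKM of *Bcl2l1* over *Bad* was 4.94 in wild type and 8.01 in the library labelled Prep1-/- (1.62, 1.40 to 1.88).

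**Figure D3:**
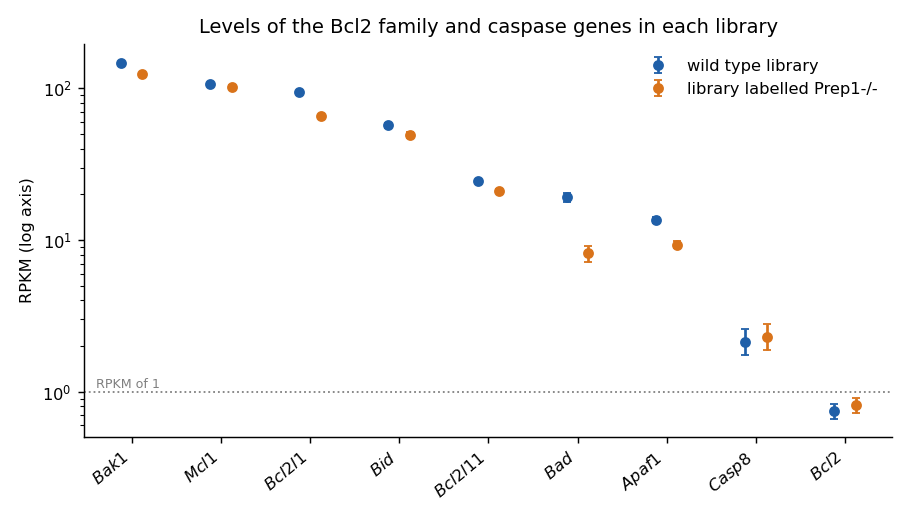
RPKM (vertical log axis) of the 9 genes in the wild type library (blue) and the library labelled Prep1-/- (orange), with 95% counting intervals as bars. Levels run from RPKM 147 and 124 for *Bak1* to 0.741 and 0.812 for *Bcl2*, and *Bad* is above *Apaf1* in wild type and below it in the other library.

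By deposited RPKM, the order in wild type was *Bak1*, *Mcl1*, *Bcl2l1*, *Bid*, *Bcl2l11*, *Bad*, *Apaf1*, *Casp8* and *Bcl2*, and no neighbours in it overlapped in their counting intervals. In the library labelled Prep1-/- the order was the same except that *Apaf1* (RPKM 9.34) was above *Bad* (RPKM 8.16), and the intervals of this pair overlapped. The order of some genes depends on the gene lengths behind the RPKM, which were not those of the annotation used here. With the longest annotated transcript as the length, the wild type library had 205 length-scaled reads, on the same scale per kilobase and library size, for *Bcl2l1* and 105 for *Mcl1*, so that this pair exchanged places. Likewise *Bcl2l11* (56.8) then stood above *Bid* (41.2), and *Bcl2* (1.56) above *Casp8* (1.32). The KO/WT ratios do not depend on the length.

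The wider pathway was a list of 55 genes in 10 roles, of which 52 were found and 41 had RPKM above 1 in either library. Of the 41, 5 had a ratio below 0.7 (12.2%, beside 13.3% of all genes tested) and 0 a ratio above 1.5. Besides *Bad*, *Bcl2l1* and *Apaf1* these were *Cflar* and *Tradd*, both of the death receptor pathway. Leaving the 9 genes out, 2 of 33 passed the fold.

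*Cflar*, which encodes the caspase-8 regulator c-FLIP, had 319 and 166 reads (RPKM 1.34 and 0.783) and a ratio of 0.584 (0.479 to 0.704). It lies 36.5 kb before *Casp8* on chromosome 1. *Tradd*, an adaptor of the tumour necrosis factor receptor, had 343 and 194 reads (RPKM 7.37 and 4.67) and a ratio of 0.634 (0.528 to 0.756). The median ratio of the 702 genes of its chromosome 8 was 0.779, and relative to that median *Tradd* was at 0.814.

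By role, the tested genes below 0.7 were 1 of 3 inhibitors, 0 of 3 pore formers and 1 of 8 BH3-only genes. They were also 1 of 5 apoptosome and intermembrane space genes and 2 of 6 death receptor genes. The other roles had 0 of 5 other Bcl2-related, 0 of 3 initiator caspase, 0 of 3 executioner caspase and 0 of 5 inhibitor of apoptosis genes. Over all genes tested the share was 13.3%. The 3 initiator caspase genes had ratios between 0.935 and 1.09, with each interval including 1. All 4 genes listed as inflammatory and other caspases stayed at or below RPKM 1 in both libraries. Among the inhibitor of apoptosis genes, *Birc5*, which encodes survivin, had 4020 and 4140 reads and a ratio of 1.15 (1.10 to 1.20), and *Birc3* had 207 and 141 reads and a ratio of 0.763 (0.610 to 0.948).

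**Figure D4:**
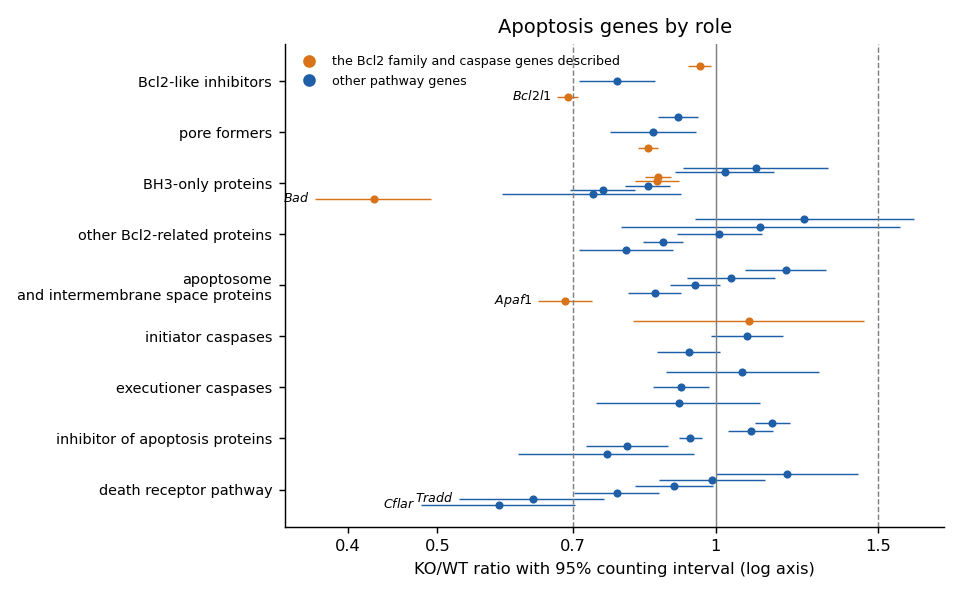
KO/WT ratio (horizontal log axis) with its 95% counting interval for the 41 tested pathway genes, in rows by role, with the 9 genes described in orange (8 tested) and the others in blue. The 5 genes named in the plot lie below 0.7, from *Bad* at 0.427 to *Bcl2l1* at 0.692, and no gene lies above 1.5.

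Prep1 ChIP-seq gave 3902 peaks, and 5 of the 9 genes (all 5 among the 8 tested) held a peak or had a peak centre within 20 kb of their start, beside 25.9% of the 13650 tested genes with an annotated position. Positions are on the mm9 build. *Bcl2l1* (ENSMUSG00000007659, chr2:152593052-152657464, minus strand) had by far the strongest, at chr2:152656689-152657790, with a fold enrichment over input of 164, above 96.2% of all peaks. Its centre lay 225 bp inside the gene in an intron, and 4 of the 10 annotated transcript starts of *Bcl2l1* fell within the peak. *Bad* (ENSMUSG00000024959, chr19:7016351-7026388, plus strand) had a peak at chr19:7016535-7017440 with a fold enrichment of 26, near the median of 21 over all peaks. This peak held 3 of the 5 transcript starts of *Bad* and also the start of *Gpr137*, on the opposite strand. Of the 3 genes below 0.7, *Bad* and *Bcl2l1* thus had a peak at a transcript start, as did *Bcl2l11* with a ratio of 0.866, whereas *Apaf1* had its nearest peak 1396 kb away.

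The remaining peaks were more distant from the gene starts or weaker. *Bid* (ENSMUSG00000004446, chr6:120841948-120866871, minus strand) had a peak of fold enrichment 58 in an intron at chr6:120853148-120853921, 13337 bp from its start. *Bcl2l11* (ENSMUSG00000027381, chr2:127951774-127988283, plus strand) had 1 peak of fold enrichment 28 at chr2:127952865-127953600, 1458 bp from the gene start but holding 1 of the 8 transcript starts, and 1 of fold enrichment 25 upstream, at chr2:127940302-127940884. *Bak1* (ENSMUSG00000057789, chr17:27156755-27165954, minus strand) had a peak of fold enrichment 24 beyond its end, at chr17:27148878-27149244. This place lies inside the span of another gene, *Ggnbp1*, on the opposite strand. *Bcl2* (chr1:108434755-108610851), *Mcl1* (chr3:95462643-95467099), *Apaf1* (chr10:90452056-90545515) and *Casp8* (chr1:58852218-58904347) had no such peak. The nearest to *Mcl1* lay 33.6 kb upstream with a fold enrichment of 73.

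**Figure D5:**
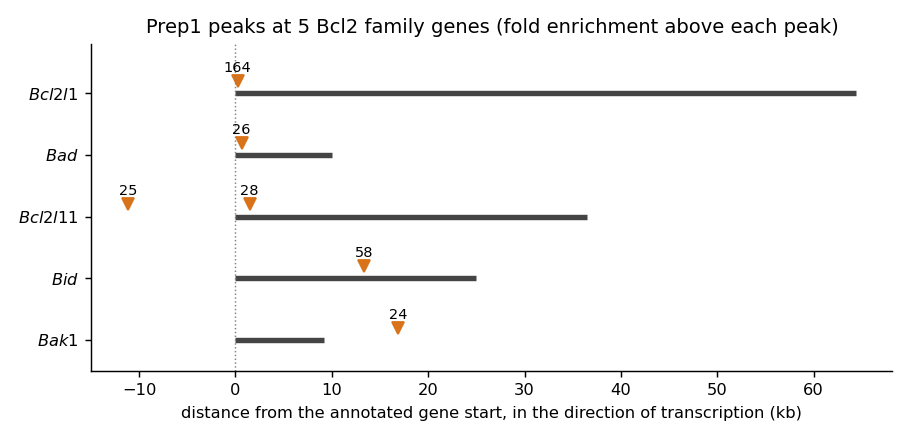
Prep1 peaks (triangles, with the fold enrichment over input above each) at the 5 genes that have one, by distance of the peak centre from the annotated gene start in kb. Bars show the span of each gene, and the peaks of *Bcl2l1* (164) and *Bad* (26) lie next to the start.

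Prep1 binds with Pbx partners to a sequence of 10 bases, the decamer, written as TGA, 1 base of any kind, and the core TGACAG. On either strand, 24.3% of all peaks held the whole decamer, 63.4% held it with at most 1 mismatch and 96.2% with at most 2. These shares are for this fixed string only. With its own motif search, the study reports its consensus in a larger share of these peaks than held the string whole. The stretches below are the best match in each peak that holds the core, with flanks, read 5′ to 3′ from the mm9 genome, and they are shown because they differ in how closely they match. Capitals mark the 10 bases of the match. That of *Bid* has 0 mismatches (chr6:120853512-120853571, minus strand, intron) and lies 7 bp from the peak centre. That of *Bcl2l1* has 1 (chr2:152657168-152657227, minus strand, intron). Those of *Bad* (chr19:7017005-7017034, plus strand, in an untranslated or non-coding exon) and *Bak1* (chr17:27148871-27148930, minus strand, beyond the gene) have 2.
Bid peak: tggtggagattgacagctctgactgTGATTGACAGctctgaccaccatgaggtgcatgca
Bcl2l1 peak: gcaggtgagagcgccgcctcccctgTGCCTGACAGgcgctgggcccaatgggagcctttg
Bad peak: ttgggtcagaTCTGTGACAGttctcgtcgc
Bak1 peak: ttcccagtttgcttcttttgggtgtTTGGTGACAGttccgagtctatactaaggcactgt
Over all peaks, 58.4% hold the core. All 4 stretches end in it, but this was largely set by how they were chosen. Only peaks that hold the core are shown, and among equal matches one ending in the core was taken. The strongest of these peaks, at *Bcl2l1*, held no exact decamer, and neither peak of *Bcl2l11* held the core, with 2 and 3 mismatches at their best match. A match is a description of the letters and not a measured site.

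In promoter windows from RefSeq (GRCm38.p6, 250 bases before to 50 after each start), the 9 genes had 13 windows. The core was in 2 of the 13, 1 of *Bcl2l1* and 1 of *Bad*, beside 19.2% of the 32851 windows of all genes. The match marked above in the *Bcl2l1* peak was in 0 windows of *Bcl2l1*, and that in the *Bad* peak was in 1 window of *Bad*. The decamer was in 0 of the 13, beside 0.874% of all windows, and the octamer TGATTNAT, N being any base, in 0, beside 3.22%. The window of *Bcl2* had the highest share of G and C, 76%, and that of *Casp8* the lowest, 42%, beside a median of 52.7% over all windows.

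Of the 5 genes with a peak, 2 had a ratio below 0.7, with a median ratio of 0.844, and of the 4 without, 1, with a median of 1.02. The 4 include *Bcl2* (ratio 1.09), which was not among the tested genes. The others without a peak were *Apaf1* (0.687), *Mcl1* (0.961) and *Casp8* (1.09). Over all tested genes, 15.8% of those with a peak and 12.2% of those without were below 0.7, with median ratios of 0.922 and 0.960. *Bcl2l1* and *Bad* had both a peak at a transcript start and a ratio below 0.7, *Bcl2l11* had such a peak with a ratio of 0.866, and *Apaf1* had a ratio below 0.7 with no peak. With 9 genes no relation between them was tested.

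Genes next to the 3 lower genes had ratios of their own. *Gpr137*, which shares 590 bp and the peak with *Bad*, had 1097 and 767 reads (ratio 0.782, 0.712 to 0.858), and *Plcb3*, on its other side, had 2470 and 2567 reads (1.16, 1.10 to 1.23). The next gene before them, *Kcnk4*, had 15 and 13 reads. *Bad* was thus lower than both of its well-covered neighbours. *Ikbip*, whose start is 170 bp from *Apaf1* on the opposite strand, had 350 and 202 reads and a ratio of 0.647 (0.540 to 0.770), which overlaps that of *Apaf1*. On the other side of *Apaf1*, *Anks1b* had 30 and 9 reads (0.361, 0.140 to 0.725). Beside *Bcl2l1*, *Tpx2* had 11989 and 9372 reads (0.874, 0.851 to 0.898) and *Cox4i2* 50 and 15 reads (0.351, 0.175 to 0.607).

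Overlapping genes on opposite strands may limit how exactly some reads can be assigned. The study speaks of transcripts of the sense strand, but the sources used here describe no strand setting for the library or the counting. This holds for *Bad* too, as *Gpr137*, with which it shares 590 bp, had more reads (1097 and 767) than *Bad* (690 and 263). *Bak1* lies wholly inside the span of *Ggnbp1* on the opposite strand, which had 437 and 360 reads. *Bid* shares 913 bp with *Bcl2l13*, which had 3620 and 2839 reads (ratio 0.877, 0.835 to 0.921).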

How the data were processed

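RNA-seq (paired-end, 50 bp) was quantified by the authors with RSEM on Ensembl release 63 genes (mm9) and passed to DESeq, and versions are not given in the sources used here. The deposited read counts are whole numbers per gene, and the deposited RPKM values are proportional to the count plus 1. ChIP-seq reads (36 bp) were aligned with BWA and peaks called by MACS against input. The deposited peak score is the fold enrichment, rounded by the authors, which was recognised from their peak table.

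KO/WT ratios of RPKM were computed with Python 3.11.15, with exact (Clopper-Pearson) 95% intervals from the counts (scipy 1.17.1). Pairs of genes were compared by exact conditional odds ratios. No test across replicates was possible. TMM factors came from edgeR 4.0.16. A gene was tested if its RPKM was above 1 in either library, and 85 genes with infinite RPKM were left out. Gene positions were taken from GENCODE M1 and sequences from NCBIM37. The genes named are the 9 genes, *Bax*, *Bbc3*, *Pknox1*, pathway genes past a fold with 20 or more reads, and overlapping or nearest genes. *Birc5*, *Birc3*, *Bcl2l12* and *Bcl2l2* were added after their values were seen. Apart from the 9 genes, which were set by symbol, genes and lists were chosen with earlier results of these data known. Alternatives were other scalings, pseudocounts, filters, thresholds and peak distances.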

Additional observations from a re-analysis of the deposited data

How the results depend on the processing

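The count of the 9 genes below 0.7 (3) became 1 when reads were scaled by summed reads, by TMM, to a median ratio of 1 or to each chromosome's median, and at thresholds of 1/1.5 or 0.5. *Bad* was the gene left in each case. The share of all tested genes below 0.7 was 13.3% with the deposited RPKM and 11.8%, 10.9%, 11.0% and 10.7% under these scalings in turn, 10.9% at 1/1.5 and 454 of the 14254 genes at 0.5. The count of intervals wholly below 1 (7 of 8) was 6 under each of the 4 scalings, beside 31.5%, 28.2%, 28.7% and 27.8% of all tested genes. By construction, these scalings multiply the ratios (by 1.03 for summed reads and 1.05 for the median and TMM), and *Bcl2l1* and *Apaf1* lie just below 0.7. With a pseudocount of 1 RPKM the count was 2. The ratio of *Bad* stayed between 0.430 and 0.456 over the 6 scalings and pseudocounts, that of *Bcl2l1* between 0.692 and 0.737 and that of *Apaf1* between 0.689 and 0.744. The pathway count below 0.7 (5) became 3 under summed reads, TMM, a median of 1, a pseudocount of 1 RPKM and a threshold of 1/1.5, 2 with chromosome medians and 1 at a threshold of 0.5. With no filter on RPKM, 4 pathway genes were above 1.5, each with at most 10 reads in either library. Over all genes, the count below 0.7 (1899) was 1207 with a pseudocount of 1 RPKM, 4377 with no filter, 886 with RPKM above 5 and 454 at the threshold of 0.5, and the count above 1.5 (985) was 525, 2848, 357 and, at a threshold of 2, 484. With RPKM above 1 in both libraries it was 623. Of the 9 genes, 4 had a peak at a limit of 5 kb (18.3% of tested genes), 6 at 50 kb (*Mcl1* was added, 38.8%) and 1 (*Bcl2l1*) with a fold enrichment of 100 or more (4.75%). Levels set by the longest transcript and the intervals under other scalings were alternatives chosen after seeing the data. No paired analysis was possible because each genotype had 1 library. Depth limits *Casp8*, with 101 and 98 reads, most.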
